A study of Mus musculus with 9 samples.

Results

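The VEGF receptors, neuropilins and ligands analysed here were 8 genes. They comprised the receptor tyrosine kinases *Kdr*, *Flt1* and *Flt4*, the neuropilins *Nrp1* and *Nrp2*, and the ligands *Vegfa*, *Vegfb* and *Vegfc*. The genes were found by their symbols among the 55471 genes of the count table, and all 8 were among the 16260 genes that passed a filter on low counts. The family was selected on the measured IFN-β values, since *Kdr* and *Flt4* were among the clearest rises with IFN-β over unstimulated DCs, so IFN-β-treated against unstimulated DCs is described here without a test, and so is IFN-β against LPS for *Kdr* and *Flt4*. RNA-seq was performed on dendritic cells (DCs) that were grown from WT mouse bone marrow with GM-CSF, a cytokine that drives myeloid differentiation. The study's methods give female C57BL/6 mice of 8 to 20 weeks as the source. There were 3 libraries of unstimulated DCs, 3 of DCs activated with LPS, a bacterial cell wall component that triggers TLR4, at 100 ng/mL, and 3 of DCs treated with IFN-β, an antiviral cytokine, at 1000 U/mL. Both stimulations lasted 6 h, the libraries of each condition carry the letters A, B and C, and the labels do not say whether the libraries came from separate mice or cultures, so the p-values may measure technical spread.

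VEGF ligands are secreted growth factors that bind receptor tyrosine kinases on the cell surface and are best known for driving the growth of blood and lymphatic vessels. *Kdr* encodes VEGFR2, the main signalling receptor for VEGF-A. *Flt1* encodes VEGFR1, which binds VEGF-A, VEGF-B and placental growth factor, and which is also made as a soluble form that traps ligand. *Flt4* encodes VEGFR3, the receptor for VEGF-C and VEGF-D on lymphatic endothelium. Neuropilins have no kinase of their own and act as coreceptors for VEGF ligands and for class 3 semaphorins. Myeloid cells are a known source of VEGF-A, and *Flt1* and the neuropilins are known on myeloid cells as well as on endothelium.

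In GRCm38 with the GENCODE M21 annotation, *Kdr* (ENSMUSG00000062960) lies at chr5:75932827-75978458 on the minus strand and *Flt1* (ENSMUSG00000029648) at chr5:147561604-147726011 on the minus strand. *Flt4* (ENSMUSG00000020357) lies at chr11:49609263-49652739 on the plus strand. The 2 neuropilin genes, *Nrp1* (ENSMUSG00000025810, chr8:128358604-128503363) and *Nrp2* (ENSMUSG00000025969, chr1:62703285-62818695), are both on the plus strand. The ligand genes are *Vegfa* (ENSMUSG00000023951, chr17:46016993-46032369, minus strand), *Vegfb* (ENSMUSG00000024962, chr19:6982473-6987651, minus strand) and *Vegfc* (ENSMUSG00000031520, chr8:54077606-54187096, plus strand). Of the 8 genes, 7 share no exon with another annotated gene, and 80 bases of the *Nrp1* exons (0.82%) are shared with a microRNA gene on the same strand. The counts are per gene and do not separate soluble from membrane *Flt1* or the splice forms of *Vegfa*.

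The 250 bases upstream of a RefSeq start are shown for *Kdr*, *Flt1* and *Vegfa*, 3 members that differed in how they responded to LPS. They are given 5′ to 3′ along the gene's own strand, with matches to the searched motifs in capitals, and come from RefSeq on GRCm38.p6 at chr5:75978456-75978705, chr5:147726012-147726261 and chr17:46032378-46032627, all on the minus strand.
Kdr: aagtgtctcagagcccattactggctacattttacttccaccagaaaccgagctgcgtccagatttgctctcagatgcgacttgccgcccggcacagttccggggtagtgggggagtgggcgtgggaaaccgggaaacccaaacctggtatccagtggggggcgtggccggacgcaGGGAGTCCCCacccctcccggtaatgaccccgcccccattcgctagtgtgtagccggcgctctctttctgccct
Flt1: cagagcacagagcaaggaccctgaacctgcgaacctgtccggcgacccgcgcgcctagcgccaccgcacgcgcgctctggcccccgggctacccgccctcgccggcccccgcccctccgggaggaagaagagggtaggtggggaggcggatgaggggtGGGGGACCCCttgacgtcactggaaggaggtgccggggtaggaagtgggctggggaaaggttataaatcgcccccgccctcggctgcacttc
Vegfa: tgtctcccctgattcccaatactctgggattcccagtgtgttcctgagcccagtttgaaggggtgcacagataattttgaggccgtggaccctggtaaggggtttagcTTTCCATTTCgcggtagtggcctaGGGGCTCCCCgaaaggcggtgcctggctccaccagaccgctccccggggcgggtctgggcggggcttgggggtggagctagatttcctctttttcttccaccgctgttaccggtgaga
The motifs were the core of the interferon-stimulated response element, the letters GAAA, NN and GAAA in a row, the gamma-activated sequence, TTCNNNGAA, the core of the hypoxia response element, ACGTG, and the κB consensus, each searched on both strands. Among 32851 RefSeq promoter windows of this length, these motifs were present in 2.98%, 7.02%, 16.6% and 7.25%, respectively. *Kdr* held a κB match, GGGAGTCCCC, at positions -74 to -65 from the start, and *Flt1* held a κB match, GGGGGACCCC, at -92 to -83. *Vegfa* held both a κB match, GGGGCTCCCC, at -118 to -109 and, on the opposite strand, an interferon-stimulated response element core, TTTCCATTTC, at -142 to -133, and the matches did not overlap. The windows of *Flt4*, *Nrp1*, *Nrp2*, *Vegfb* and *Vegfc* held none of these letters. For *Flt4* and *Nrp1* the RefSeq start lies 416 and 469 bases downstream of the GENCODE start. Their windows thus lie inside the annotated gene, and the bases before its start were not searched. A second RefSeq start of *Vegfa* lies 7206 bases downstream of the GENCODE start. Its window, also inside the gene, held the hypoxia core. These matches describe the letters of the windows, and binding was not measured.

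Unstimulated libraries held 33425803 to 35877346 counts, LPS libraries 36115384 to 41015280 and IFN-β libraries 36843765 to 43735199. Levels are given as CPM, the standard unit of counts relative to sequencing depth, after TMM scaling, a correction for libraries in which a few genes take much of the total. TMM factors differed between the groups, from 1.18 to 1.26 in unstimulated DCs, 0.783 to 0.841 with LPS and 0.977 to 1.02 with IFN-β, and scaling by library size alone shifted the median gene by -0.58 (LPS) and -0.31 (IFN-β) on the log2 scale. Among the genes that passed, the share that was higher then fell from 48.1% to 21.9% for LPS and from 50.3% to 22.3% for IFN-β. The DC markers *Itgax*, *Cd74*, *H2-Aa* and *Zbtb46* were detected in every library, whereas the DC markers *Flt3* (1.88 to 4.99 CPM) and *Cd209a* (0 to 16 counts) were low. The macrophage markers *Csf1r* and *C1qa* were also detected throughout, at 546.5 to 1198 CPM and 64.2 to 188 CPM. In RNA from whole cultures, a change in the number of cells of a type and a change in RNA per cell cannot be told apart.

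LPS changed both *Kdr* and *Flt4* strongly. *Kdr* was at 10.7, 9.36 and 9.21 CPM in unstimulated libraries A, B and C, and at 120, 120 and 126 CPM with LPS. In raw counts these were 408 to 423 and 3386 to 4125, so the groups were far apart. *Kdr* rose 12.5-fold (log2 fold change 3.64, standard error 0.10, edgeR quasi-likelihood test with Benjamini-Hochberg adjustment, adjusted p = 1.23e-09). *Flt4* had the lowest level per length of the 8 genes in unstimulated DCs, at 0.659, 1.03 and 0.429 CPM (26, 46 and 19 counts). With LPS it reached 18.7, 16.3 and 15.8 CPM (529, 560 and 515 counts), a 23.8-fold rise (log2 fold change 4.57, standard error 0.20, edgeR adjusted p = 1.86e-08). The LPS comparison shares the unstimulated libraries with the comparison on which the family was chosen.

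With IFN-β, the comparison that chose the family, *Kdr* was at 133, 123 and 152 CPM and *Flt4* at 36.3, 32.5 and 35.2 CPM. The mean level of *Kdr* was 13.95-fold that of unstimulated DCs (log2 difference 3.80, standard error 0.10), and that of *Flt4* was 48.7-fold (5.61, standard error 0.20). The *Kdr* values with LPS (122 ± 3.47 CPM, SD, n = 3) and with IFN-β (136 ± 14.7 CPM) overlapped, with a log2 difference of 0.16 (standard error 0.09). *Flt4* values did not overlap between the stimuli, being 16.95 ± 1.55 CPM with LPS and 34.7 ± 1.96 CPM with IFN-β, 2.05-fold apart (log2 difference 1.03, standard error 0.15). Within the letters A, B and C, the log2 difference of IFN-β from LPS was 0.15, 0.04 and 0.27 for *Kdr* and 0.94, 0.97 and 1.13 for *Flt4*, so both genes were higher with IFN-β in 3 of 3 pairs. Neither difference was tested because these genes were chosen for their IFN-β values.

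*Flt1* had a different pattern from *Kdr*. It was at 66.5, 70.0 and 64.8 CPM in unstimulated DCs, at 74.3, 74.2 and 53.1 CPM with LPS, and at 225, 193 and 202 CPM with IFN-β. Unstimulated and LPS libraries overlapped, with library C lowest in LPS, and all 3 IFN-β libraries lay far above both groups. The log2 fold change with LPS was 0.00 (standard error 0.12, edgeR adjusted p = 0.989) and became -0.58 (edgeR adjusted p = 0.000441) when libraries were scaled by size alone, the size of that scaling's shift in the median gene. *Flt1* was 3.08-fold higher with IFN-β than with LPS (log2 fold change 1.62, standard error 0.12, edgeR adjusted p = 1.86e-06), and its IFN-β level was 3.09-fold that of unstimulated DCs.

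**Figure D1:**
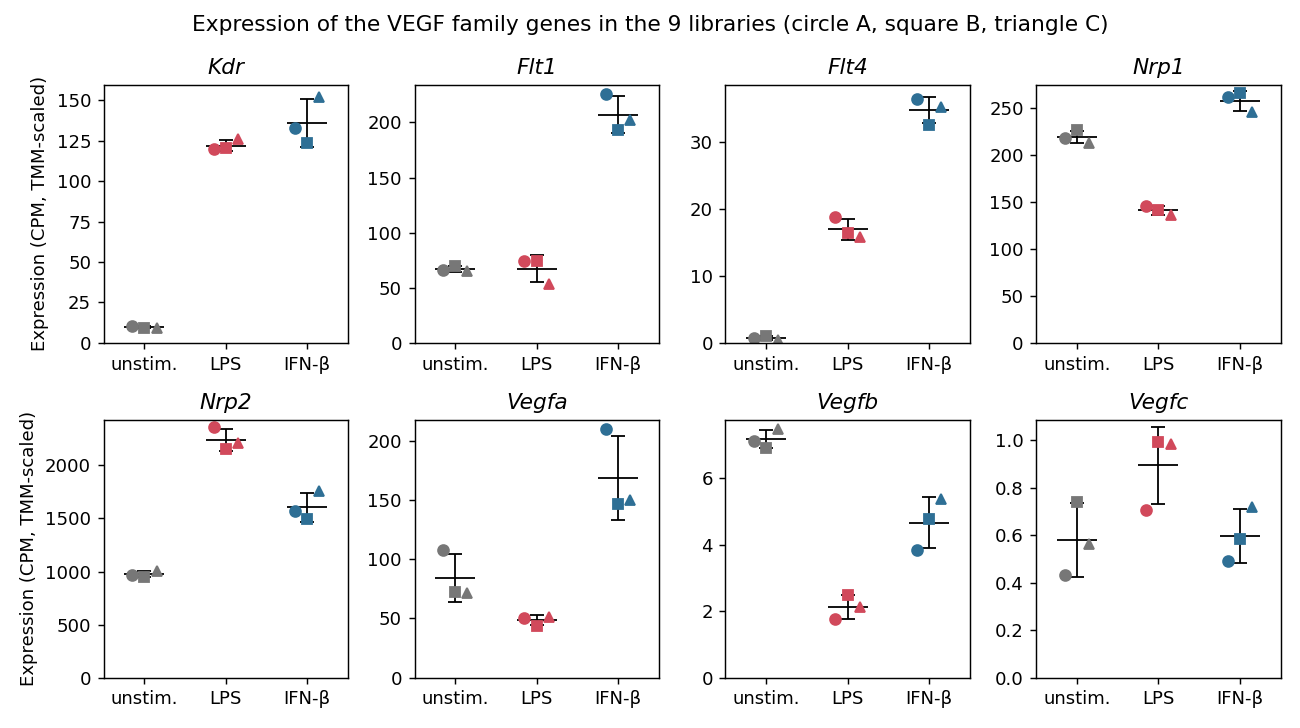
Expression of the 8 genes, each in its own panel with its own linear axis from 0, in CPM after TMM scaling; each point is a library (circle A, square B, triangle C), and lines mark group means with SD. *Kdr* stood at 9.21 to 10.7 CPM unstimulated and at 120 to 152 CPM in all 6 stimulated libraries, whereas *Flt1* stood at 193 to 225 CPM with IFN-β and at 53.1 to 74.3 CPM in the other 6 libraries.

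The neuropilins changed in opposite directions with LPS. *Nrp1* was at 218, 227 and 213 CPM unstimulated, 146, 141 and 137 CPM after LPS and 262, 266 and 246 CPM with IFN-β, with no overlap between any 2 groups. It fell with LPS (log2 fold change -0.63, standard error 0.06, edgeR adjusted p = 5.11e-06) and was higher with IFN-β than with LPS (0.87, standard error 0.06, edgeR adjusted p = 1.41e-06). Its difference between IFN-β and unstimulated DCs was small, at 0.23 (standard error 0.06), and was -0.073 with scaling by library size alone. *Nrp2* was the most abundant of the members, at 968, 949.9 and 1010 CPM unstimulated, 2360.4, 2159 and 2207 CPM with LPS, and 1568, 1494.6 and 1756 CPM with IFN-β. The order of the *Nrp2* groups was therefore LPS, IFN-β, unstimulated, without overlap. *Nrp2* rose 2.297-fold with LPS (log2 fold change 1.20, standard error 0.09, edgeR adjusted p = 6.47e-07) and was lower with IFN-β than with LPS (-0.48, standard error 0.09, edgeR adjusted p = 0.00109).

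Among the ligands, *Vegfa* was lowest with LPS and highest with IFN-β. *Vegfa* was at 107, 72.6 and 71.7 CPM in unstimulated DCs, 50.3, 43.8 and 51.2 CPM with LPS, and 209, 146 and 150.2 CPM with IFN-β. Library A was the highest of both the unstimulated and the IFN-β group, and no 2 groups overlapped. *Vegfa* fell 1.73-fold with LPS (log2 fold change -0.79, standard error 0.18, edgeR adjusted p = 0.00211), and without any 1 library the value ranged from -0.90 to -0.58. It was 3.48-fold higher with IFN-β than with LPS (1.80, standard error 0.18, edgeR adjusted p = 1.53e-05), and 2.01-fold higher with IFN-β than in unstimulated DCs (1.01, standard error 0.17, described without a test).

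*Vegfb*, a ligand of VEGFR1, was low and highest without stimulation. It was at 7.12, 6.92 and 7.47 CPM unstimulated, 1.77, 2.48 and 2.12 CPM with LPS (50, 85 and 69 counts), and 3.84, 4.78 and 5.36 CPM with IFN-β. *Vegfb* fell 3.36-fold with LPS (log2 fold change -1.75, standard error 0.16, edgeR adjusted p = 2.89e-06) and was 2.18-fold higher with IFN-β than with LPS (edgeR adjusted p = 0.000201). *Vegfc*, a ligand of VEGFR3, was at 17 to 34 counts in every library (0.431 to 0.990 CPM) and its groups overlapped. The log2 fold change of *Vegfc* with LPS was 0.62 (standard error 0.27, edgeR adjusted p = 0.0579), and with the letters as a replicate block it was 0.62 (edgeR adjusted p = 0.033), so at this depth the call depended on the model. The log2 difference of *Vegfc* with IFN-β was 0.03 from unstimulated DCs (standard error 0.27; -0.28 by library size alone) and -0.59 from LPS (edgeR adjusted p = 0.0926).

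Across the family, 6 of 8 genes passed the threshold with LPS (adjusted p under 0.05), and 6 of 8 did not overlap between groups. Of all genes tested, 68.2% passed in this comparison (32.8% higher and 35.4% lower) and 72.4% did not overlap, so the share of the family was close to that of all genes. *Kdr*, *Flt4* and *Nrp2* rose and *Nrp1*, *Vegfa* and *Vegfb* fell (by library size alone *Flt1* fell as well), with a median log2 fold change of 0.31 against -0.04 over all genes. Between IFN-β and LPS, 5 of the 6 tested members passed (4 higher and 1 lower with IFN-β), where 49.1% of all genes did (25.8% higher and 23.3% lower) and 56.8% did not overlap. The median over these 6 genes was 0.995, against 0.02 over all genes. In the comparison that chose the family, the counts are a description and no test of the members: 7 of 8 genes were past the threshold used for all genes (6 higher and 1 lower) and 7 did not overlap. Of all genes 46.9% were past it, 23.6% higher and 23.3% lower, and 58.1% did not overlap, and nothing is read from this.

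**Figure D2:**
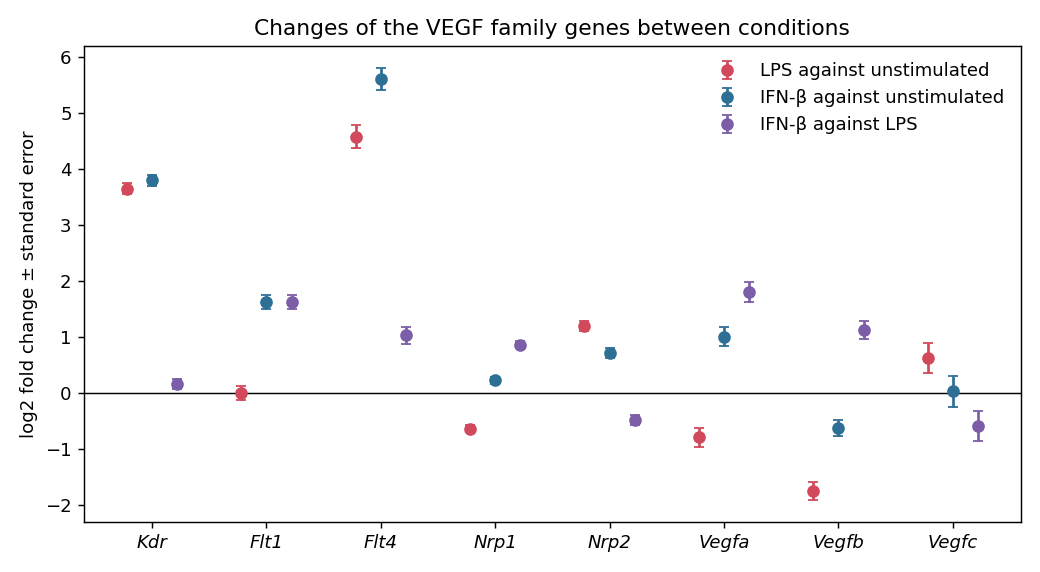
Log2 fold changes of the 8 genes with their standard errors, for each stimulus against unstimulated DCs and for IFN-β against LPS, with a line at no change. *Kdr* (3.64 and 3.80) and *Flt4* (4.57 and 5.61) were above unstimulated DCs under both stimuli, *Vegfa* lay at -0.79 and 1.01, and *Nrp1* (0.23) and *Vegfc* (0.03) with IFN-β over unstimulated DCs and *Flt1* with LPS (0.00) are the values that turned negative with scaling by library size alone (-0.073, -0.28 and -0.58).

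Levels of different genes were compared per kilobase of annotated exon, as CPM per kb. In unstimulated DCs the order was *Nrp2* (82.4), *Nrp1* (22.4), *Vegfa* (19.6), *Flt1* (4.97), *Vegfb* (4.47), *Kdr* (1.08), *Vegfc* (0.236) and *Flt4* (0.0859), and of these neighbours only *Nrp1* and *Vegfa* overlapped. With LPS it was *Nrp2* (189), *Nrp1* (14.5), *Kdr* (13.5), *Vegfa* (11.3), *Flt1* (4.98), *Flt4* (2.06), *Vegfb* (1.32) and *Vegfc* (0.365), with no overlap between neighbours. With IFN-β it was *Nrp2* (136), *Vegfa* (39.3), *Nrp1* (26.4), *Flt1* (15.3), *Kdr* (15.1), *Flt4* (4.21), *Vegfb* (2.90) and *Vegfc* (0.244), where *Flt1* and *Kdr* overlapped. *Kdr* thus went from the sixth place to the third with LPS. Dividing by the longest transcript instead kept the rank of all 8 genes without stimulation and with LPS, and of 6 of 8 with IFN-β, where *Nrp1* and *Vegfa* traded places.

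**Figure D3:**
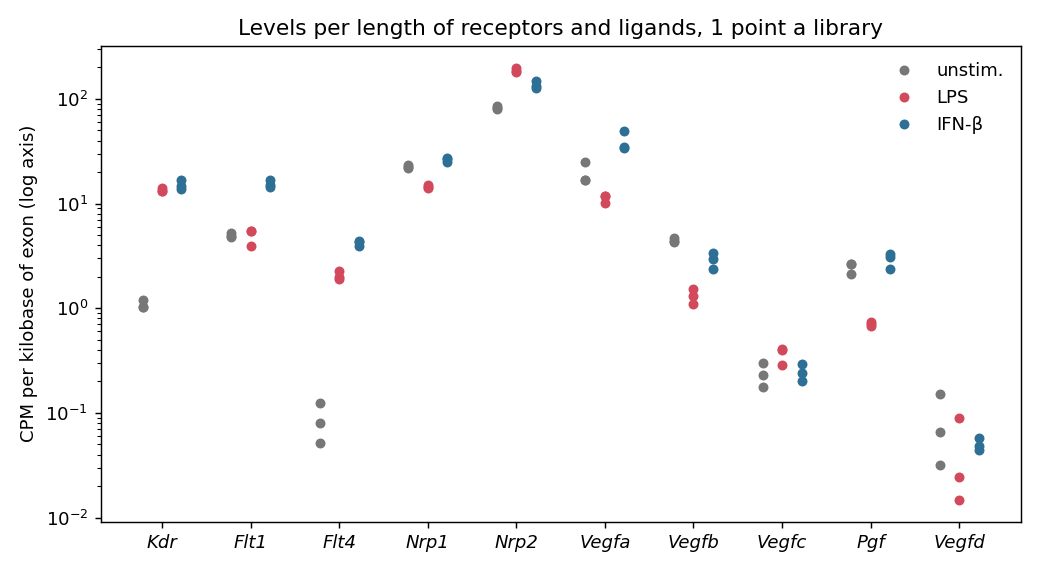
Levels of the 8 genes and of the ligand genes *Pgf* and *Vegfd*, in CPM per kilobase of exon on a log axis, 1 point a library and colours for the 3 conditions. *Nrp2* was at the top in all 9 libraries, and *Flt4* moved from 0.0859 unstimulated to 2.06 with LPS and 4.21 with IFN-β.

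Ratios between genes of the same library do not depend on the scaling between libraries. Per length, *Nrp2* was 3.68 ± 0.224 times *Nrp1* in unstimulated DCs (SD, n = 3), 13.09 ± 0.404 times with LPS and 5.164 ± 0.654 times with IFN-β, and the groups did not overlap (3.46 to 3.91, 12.6 to 13.3 and 4.64 to 5.90). With the longest transcript as the length these ratios were 2.42, 8.59 and 3.39. Of the signal of the 3 kinase receptors, *Flt1* made up 81.0 ± 1.26% before stimulation, 24.1 ± 3.71% with LPS and 44.3 ± 2.61% with IFN-β. *Kdr* made up 17.6 ± 1.43%, 65.8 ± 4.01% and 43.5 ± 2.88%, and *Flt4* 1.39 ± 0.551%, 10.0 ± 0.691% and 12.2 ± 0.291%. The largest share was thus that of *Flt1* without stimulation and that of *Kdr* with LPS. With IFN-β the mean share of *Flt1* was the larger with either length, but whether the pair overlapped depended on the length. Per kilobase of annotated exon the shares overlapped (41.5 to 46.6% for *Flt1* and 41.05 to 46.7% for *Kdr*). With the longest transcript *Flt1* made up 51.3% (48.4 to 53.7%) and *Kdr* 39.2% (36.8 to 42.4%), which did not overlap. Among 5 ligand genes, the 3 members with *Pgf* and *Vegfd*, *Vegfa* made up 72.5 ± 4.57%, 82.2 ± 2.71% and 86.3 ± 2.73% of the signal in the same order. The shares with LPS and IFN-β overlapped (79.2 to 84.5% and 83.8 to 89.2%). The share was higher with LPS than without stimulation while *Vegfa* itself fell (log2 fold change -0.79), and *Vegfb* (-1.75) and *Pgf* (-1.79) fell more.

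**Figure D4:**
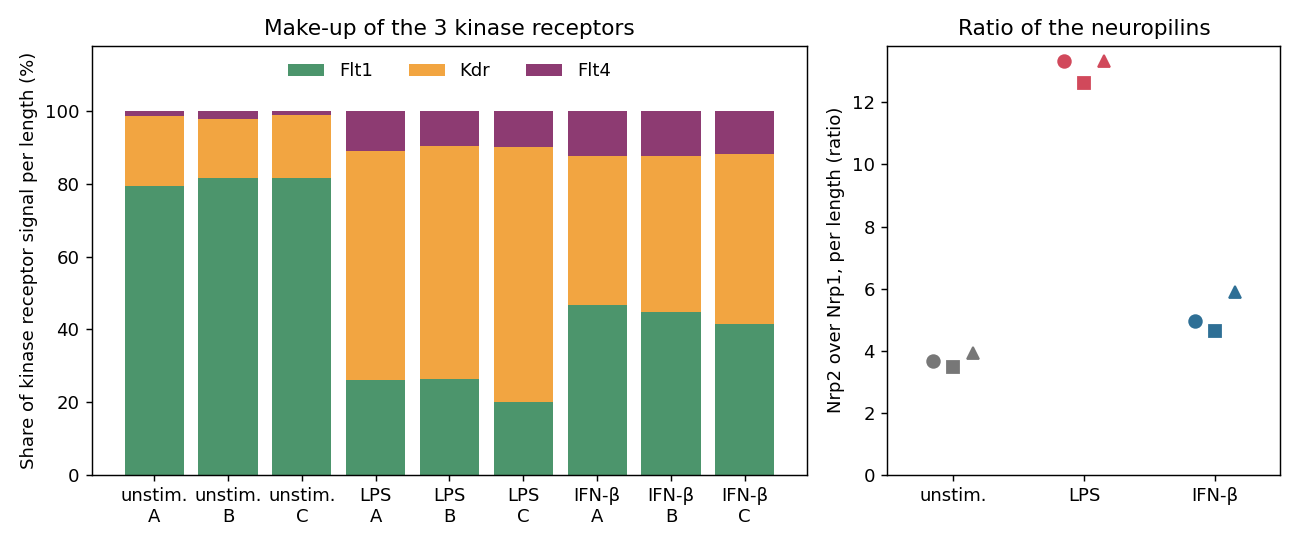
Left, the share of *Flt1*, *Kdr* and *Flt4* in the summed signal per length of the 3 kinase receptors, as stacked bars for each of the 9 libraries. Right, the ratio of *Nrp2* to *Nrp1* per length, 1 point a library, which ranged from 3.46 to 3.91 unstimulated, from 12.6 to 13.3 with LPS and from 4.64 to 5.90 with IFN-β.

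The remaining VEGF family ligands were *Pgf*, which encodes placental growth factor, a ligand of VEGFR1, and *Vegfd*, a ligand of VEGFR3. *Pgf* was at 7.17 ± 0.878 CPM unstimulated, 2.06 ± 0.0961 CPM with LPS and 8.45 ± 1.44 CPM with IFN-β. It fell with LPS (log2 fold change -1.79, standard error 0.16, edgeR adjusted p = 2.25e-06) and was higher with IFN-β than with LPS (2.03, edgeR adjusted p = 2.46e-06), whereas its difference between IFN-β and unstimulated DCs did not pass (0.24, edgeR adjusted p = 0.186). *Vegfd* had at most 16 counts in a library and was not tested. *Pgf* and *Vegfb*, both ligands of VEGFR1, thus fell with LPS, where *Flt1*, which encodes that receptor, had a log2 fold change of 0.00 (-0.58 with scaling by library size alone).

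Of 12 class 3 semaphorins and plexins, the other ligands and partners of neuropilins, 7 were tested. With LPS 2 rose and 3 fell, with IFN-β 1 rose and 1 fell, and between IFN-β and LPS 3 were higher and 2 lower with IFN-β, with medians of -0.70, -0.08 and 0.72. Of all genes 68.2%, 46.9% and 49.1% passed in the same order. With scaling by library size alone the splits were 2 higher and 5 lower, 0 and 2, and 5 and 2. *Sema3c*, a secreted semaphorin, rose with LPS (2.44, edgeR adjusted p = 0.000107) and was lower with IFN-β than with LPS (-2.52, edgeR adjusted p = 0.000199). *Plxna2*, a plexin, fell with LPS (-2.42, edgeR adjusted p = 0.000739) and was higher with IFN-β than with LPS (2.66, edgeR adjusted p = 0.000702). *Plxna1*, the plexin with the highest level named here, was at 812 CPM unstimulated, 458.7 with LPS and 1001 with IFN-β. It fell by 0.82 on the log2 scale with LPS and rose by 0.30 with IFN-β (edgeR adjusted p = 0.0289), a rise that was lost with upper-quartile factors (0.23, edgeR adjusted p = 0.0932) and with library size alone (0.00), and 10.7% of its exon bases overlap an antisense gene. *Plxna3* fell with IFN-β (-1.21, edgeR adjusted p = 0.00389) at 0.575 to 1.33 CPM.

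Of 48 genes of the signalling cascades below VEGF receptors, 44 were tested. With LPS 39 passed (23 higher, 16 lower), against 68.2% of all genes, with IFN-β 32 passed (22 higher, 10 lower), against 46.9%, and between IFN-β and LPS 30 passed (15 each way), against 49.1%. The medians were 0.25, 0.25 and 0.03. The directions depended on the scaling, since by library size alone 8 were higher and 27 lower with LPS, 8 and 20 with IFN-β, and 23 and 8 between the stimuli. *Ptgs2*, which encodes the inducible prostaglandin synthase COX-2, was the most changed, at 2.25 CPM unstimulated, 3077 CPM with LPS and 10.5 CPM with IFN-β (log2 fold changes 10.42 and 2.23). *Nfatc2*, a transcription factor switched on by calcineurin, fell with LPS (-2.12, edgeR adjusted p = 4.83e-08) and was higher with IFN-β than with LPS (1.66). *Prkca*, a protein kinase C gene, fell with IFN-β (-0.85, edgeR adjusted p = 0.00161) and with LPS (-1.21, edgeR adjusted p = 7.34e-05). Its difference between IFN-β and LPS did not pass (0.36, edgeR adjusted p = 0.105), though by library size alone it did (0.62, edgeR adjusted p = 0.0155). Many of these genes act below other receptors too, so the counts describe the list and not VEGF signalling.

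Of 12 adaptors, phosphatases and trafficking partners of these receptors, 10 were tested, and 5 rose and 1 fell with LPS, 6 rose and none fell with IFN-β, and 2 were higher and 3 lower with IFN-β than with LPS. Of all genes 68.2%, 46.9% and 49.1% passed in these comparisons, and the median log2 fold changes of the list were 0.20, 0.28 and 0.07. Here too the directions depended on the scaling, with 1 higher and 8 lower, 2 and 2, and 7 and 1 by library size alone. *Ptprj*, a receptor-type phosphatase that acts on VEGFR2, rose from 434.7 CPM to 1216 CPM with LPS (1.48, edgeR adjusted p = 5.47e-08) and to 696 CPM with IFN-β (0.68, edgeR adjusted p = 5.67e-05). *Shb*, an adaptor that binds VEGFR2, fell with LPS (-0.81, edgeR adjusted p = 0.000258).

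The 5 related receptor kinase genes of the PDGF receptor class differed among themselves. *Pdgfra* rose with LPS (log2 fold change 3.61, standard error 0.56, edgeR adjusted p = 0.000166), from 2 to 5 counts a library unstimulated to 21 to 52 counts, and its IFN-β libraries (7 to 18 counts) lay above the unstimulated ones without passing (1.67, edgeR adjusted p = 0.0585). *Pdgfrb*, a receptor of stromal cells, was at 0.714 CPM unstimulated, 23.5 CPM with LPS and 0.645 CPM with IFN-β, so it rose with LPS (5.02, edgeR adjusted p = 1.02e-07) and its IFN-β libraries overlapped the unstimulated ones. *Csf1r*, the receptor of the macrophage growth factor CSF-1, fell with LPS (-0.97) and was higher with IFN-β than with LPS (0.91), and 15.1% of its exon bases overlap a gene on the opposite strand. *Kit*, the receptor of stem cell factor and a neighbour of *Kdr* 276105 bases away, fell with IFN-β (-1.25, edgeR adjusted p = 0.0118) while *Kdr* was 3.80 higher on the log2 scale. In all, 3 of 5 genes passed with LPS (2 higher, 1 lower), 1 of 5 with IFN-β (lower) and 3 of 5 between the stimuli (1 higher, 2 lower with IFN-β), against 68.2%, 46.9% and 49.1% of all genes, and the medians were 0.19, -0.15 and -0.75. With the letters as a replicate block, 2 passed with IFN-β and 5 between the stimuli. By library size alone, 2 were higher and 2 lower with LPS and 2 were lower with IFN-β, and by DESeq2 1 was higher and 1 lower with IFN-β.

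*Kdr* and *Flt4* are genes of blood and lymphatic endothelium, so 17 endothelial markers were read in the same libraries. Of the 17, 12 had at most 10 counts in every library, and *Cldn5* and *Sox17* had none. *Tek* had at most 1 count and *Tie1* at most 6 counts in any library, where *Kdr* had 408 to 5666. Other markers were higher, and in unstimulated libraries *Vwf* had 2742 to 3304 counts, above *Kdr* (408 to 423). *Pecam1*, an endothelial adhesion marker, had 88 to 121 counts unstimulated, above *Flt4* (19 to 46). It rose with LPS (0.54, edgeR adjusted p = 0.00935) and did not pass with IFN-β (0.32, edgeR adjusted p = 0.113). The LPS rise of *Pecam1* did not pass by library size alone. *Cdh5*, the endothelial cadherin, had 33 to 71 counts unstimulated, 78 to 123 with LPS and 89 to 166 with IFN-β, and it rose with LPS (1.36, edgeR adjusted p = 0.0043) and with IFN-β (1.34, edgeR adjusted p = 0.00737). *Prox1*, the lymphatic transcription factor, had 5 to 10, 15 to 19 and 4 to 11 counts, and rose with LPS (1.60, edgeR adjusted p = 0.00195) while IFN-β libraries overlapped unstimulated ones. *Vwf*, at 72.4, 43.0 and 92.6 CPM, fell with LPS (-0.75) and rose with IFN-β (0.35, edgeR adjusted p = 0.0177), a rise that was lost by library size alone (0.05, edgeR adjusted p = 0.688). The summed level of the list ranged from 66.3 to 85.9 CPM unstimulated, 49.2 to 54.2 CPM with LPS and 90.5 to 106 CPM with IFN-β, most of it *Vwf*. Of the 5 tested markers, 4 passed with LPS (3 higher, 1 lower), 2 with IFN-β (both higher) and 2 between the stimuli (1 each way), with medians of 0.87, 0.35 and -0.02, where 68.2%, 46.9% and 49.1% of all genes passed. The part of endothelial RNA in the *Kdr* and *Flt4* values was not tested.

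**Figure D5:**
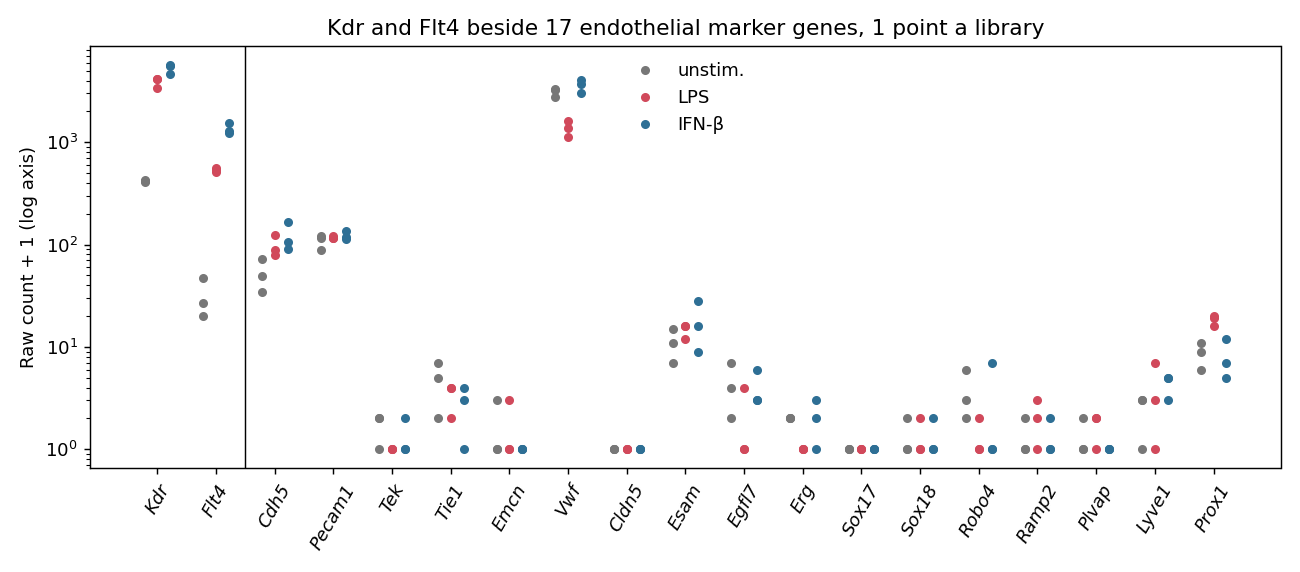
Raw counts plus 1 on a log axis of *Kdr* and *Flt4*, left of the line, and of 17 endothelial marker genes, right of it, 1 point a library and colours for the 3 conditions. *Kdr* (408 to 5666 counts) lay far above *Tek* (0 to 1) and *Tie1* (0 to 6) in every library. *Vwf* is the marker with the most counts, and lay above *Kdr* in unstimulated libraries (2742 to 3304 against 408 to 423) and below it with both stimuli.

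Other cell types were read with lists of markers in the same way. The summed DC markers ranged from 5296 to 6360 CPM unstimulated, 7177 to 7961 CPM with LPS and 5912 to 6278 CPM with IFN-β, and 7, 2 and 5 of 9 tested genes passed for LPS, IFN-β and IFN-β against LPS. These were 6 higher and 1 lower, 2 and 0, and 1 and 4. Of all genes 68.2%, 46.9% and 49.1% passed in the same comparisons, the shares to set beside every list in this paragraph. For macrophages the ranges were 1907 to 2435, 2600 to 3278 and 2614 to 2985 CPM, with 7, 3 and 7 of 8 passing. The macrophage markers that passed went both ways, with 4 higher and 3 lower, 2 and 1, and 4 and 3. Plasmacytoid DC markers, which include the interferon-stimulated gene *Bst2*, ranged from 103 to 181, 600.2 to 728 and 429 to 474 CPM, with 3, 3 and 2 of 4 passing. Neutrophil markers stood at 9.48 to 20.98, 12.5 to 23.4 and 8.98 to 17.3 CPM, with 1, 0 and 1 of 4 passing. Mast cell markers stood at 7.30 to 11.3, 137 to 155 and 10.3 to 12.2 CPM with 1, 2 and 1 of 3 passing, where *Hdc* alone was at 142 CPM with LPS. Fibroblast markers were at 3.23 to 5.17, 22.1 to 38.4 and 3.33 to 5.28 CPM, with 1, 0 and 1 of 5 passing, and *Pdgfrb* made up most of the LPS values. The macrophage and plasmacytoid DC sums were thus above unstimulated DCs under both stimuli, as *Kdr* and *Flt4* were, and their part in the members' values was not tested.

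The genes most like *Kdr* were found by the root mean square difference of log2 values, centred on unstimulated DCs, over the 9 libraries among 16259 genes. In log2 units, they were *Fgl2* (0.183), *Abcb1a* (0.270), *Ccl12* (0.300), *Herc6* (0.343) and *Tlr3* (0.379). *Fgl2* was at 42.3 CPM unstimulated, 450.4 CPM with LPS and 598 CPM with IFN-β, where *Kdr* was at 9.76, 122 and 136 CPM. The genes most like *Flt4* were farther from it, and were *Abcb1a* (0.587), *Ifi203-ps* (0.616), *Serpina3g* (0.645), *Ifi44* (0.683) and *Plekha4* (0.692). *Abcb1a* was common to both lists, *Kdr* was the eighth gene by likeness to *Flt4*, and *Flt4* had rank 51 by likeness to *Kdr*. With a pseudocount of 2 in place of 0.5 CPM, 3 of the 5 genes were shared for *Kdr* and 0 of 5 for *Flt4*. *Abcb1a* was then in neither list, and *Kdr* was among the 5 genes most like *Flt4*. Both lists thus depended on the pseudocount, that for *Flt4* the more.

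The 16 genes next to the members on the chromosomes were compared in the same way, and 12 of them were tested. Of these 12, 6 passed with LPS, 7 with IFN-β and 7 between the stimuli, where 68.2%, 46.9% and 49.1% of all genes passed. *Srd5a3*, the other neighbour of *Kdr* at 161813 bases, was at 0.16 with LPS (edgeR adjusted p = 0.15) and rose by 0.43 with IFN-β (edgeR adjusted p = 0.00321), which by library size alone was 0.13 (edgeR adjusted p = 0.173). The neighbours of *Flt4*, *Olfr1380* and *Scgb3a1*, did not pass the low-count filter. *Pan3*, 13102 bases from *Flt1*, was at 0.06 with LPS and 0.01 with IFN-β, and passed in neither, while *Flt1* itself was 3.09-fold higher with IFN-β.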

How the data were processed

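Total RNA from bone marrow-derived DCs was rRNA-depleted, and libraries were sequenced as 100 bp paired-end reads. The authors trimmed the reads (Trim Galore 0.6.0), mapped them to GRCm38 with STAR (the submitters' processing notes give 2.7.8a, the paper another version) and deposited raw counts per gene, without normalization or a low-count filter. The strand setting of the counting is not given in the sources used here. From these counts, edgeR 4.0.16 (R 4.3.3, limma 3.58.1) was used for TMM scaling, the filterByExpr filter, a quasi-likelihood model with 1 term per condition over all 9 libraries, and Benjamini-Hochberg adjustment over 16260 genes, with a threshold of 0.05. The standard error is the absolute log2 fold change divided by the square root of F. The script was tested on simulated data in which few genes changed and the letters had no effect. That test did not cover scaling when many genes change, or the pairing. Replicate libraries differed by more than counting noise. Intervals were not computed, and 3 counts were used as the detection floor.

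The letters A, B and C of the 3 groups were checked for pairing. All 9 same-letter pairs deviated together (correlations 0.134 to 0.546), and each of the 9 libraries correlated best with its own letter. The labels do not say what a letter marks.

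Members and lists were chosen with earlier results of these data known, and the lists were written from memory of the pathways. Named genes are the 8 members, the most changed gene in each direction of each pathway list and contrast, the endothelial markers *Cdh5*, *Tek*, *Tie1* and *Prox1*, the neighbours, and the 5 genes most like *Kdr* and *Flt4*. DC and macrophage markers named beside the depth, with *Bst2*, *Hdc*, *Pdgfra*, *Pecam1*, *Cldn5* and *Sox17*, were chosen after their values were seen. Positions are from GENCODE M21 on GRCm38 (55230 of 55471 identifiers matched), and promoters from RefSeq on GRCm38.p6. Alternatives were DESeq2 1.42.0, library size only, upper-quartile factors, no low-count filter, at least 10 counts in every library, the replicate block, only the 2 groups compared, each library left out, the longest transcript as length, and a pseudocount of 2 CPM.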

Additional observations from a re-analysis of the deposited data

How the results depend on the processing

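The 8 genes kept the sign of their differences under each alternative, except *Flt1* with LPS, *Nrp1* with IFN-β and *Vegfc* with IFN-β against unstimulated DCs (0.03, and -0.28 by library size only). *Flt1* with LPS was -0.08 to 0.15 with 1 library left out. With scaling by library size only, *Flt1* with LPS was -0.58 and *Nrp1* with IFN-β against unstimulated was -0.073, against 0.00 and 0.23. *Vegfc* with LPS, which did not pass (0.62), passed with at least 10 counts in every library (0.61, adjusted p = 0.0479), with the replicate block (0.62, adjusted p = 0.033) and without unstimulated library B or LPS library A, the values with 1 library left out being 0.45 to 0.83. The replicate block changed no other call of a member. Counts of genes in lists that moved by over 1.5 times were as follows. For semaphorins and plexins, 3 passed with LPS and 3 between the stimuli with at least 10 counts, and 1 passed with IFN-β with upper-quartile factors or at least 10 counts. For the adaptors, 8 passed between the stimuli with library size only. For the PDGF receptor class, 2 passed with IFN-β by DESeq2, library size only, no filter or the block, and 5 between the stimuli with the block. For endothelial markers, 1 passed with IFN-β with library size only, and 1 between the stimuli with at least 10 counts. With 1 library left out, counts were 0 to 1 for the other ligands with IFN-β (1 without IFN-β library B), 1 to 2 for semaphorins and plexins with IFN-β (1 without library B or C of either group), 3 to 5 for the adaptors between the stimuli (3 without IFN-β library B), 1 to 2 for the PDGF receptor class with IFN-β (2 without LPS library A or C) and 1 to 3 for endothelial markers with IFN-β (1 without unstimulated library C or IFN-β library A or B). The cause was not tested. *Vegfc* (17 to 34 counts in a library) and most endothelial markers (12 of 17 with at most 10 counts in every library) had low counts.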
